A study of Mus musculus with 6 samples.

Results

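The 10 genes described here encode MHC class I molecules of the mouse and the machinery that loads them with peptide. They are the rows of the deposited table named H2-D1, H2-K1, H2-T23, B2m, Tap1, Tap2, Tapbp, Tapbpl, Nlrc5 and Erap1, taken by symbol out of 17313 genes, and all 10 passed the filter on low values. RNA was sequenced from macrophages that the series' design text describes as grown from the bone marrow of LLC1-bearing mice on the C57BL/6 background. LLC1 is a mouse Lewis lung carcinoma line, given here by vein, and marrow was harvested on day 20. The KO libraries (n = 3) came from Hdac2fl/fl mice that also carried LysMCre (Hdac2fl/fLysMCre in the labels), and the WT libraries (n = 3) from Hdac2fl/fl mice without Cre, so both groups carried the floxed alleles and both bore tumours. LysM-Cre is active in myeloid cells, and loss of HDAC2, a class I histone deacetylase, is therefore limited to cells in which the Cre was expressed. The labels name no ages, sexes or culture conditions. They also do not say which libraries came from which mice, and p-values therefore reflect only how these libraries vary, which may be partly technical.

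MHC class I molecules show peptides from inside the cell to CD8+ T cells and are read by inhibitory receptors of NK cells. Peptides made by the proteasome are pumped into the endoplasmic reticulum by the TAP transporter, trimmed by the aminopeptidase ERAP1 and loaded onto a heavy chain paired with beta-2-microglobulin, with tapasin holding the complex at the transporter. NLRC5 is the transactivator of class I genes and acts through the RFX, CREB/ATF and NF-Y proteins bound at an element called the SXY module, while NF-kB and interferon regulatory factors bind a separate enhancer upstream. Macrophages express the pathway at rest and raise it with interferon.

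Promoter stretches were read from the RefSeq table of start-site windows (build GRCm38.p6), which matched 7 of the 10 genes; Tap2, Tapbpl and Nlrc5 had no entry. The 5 shown here are those of the heavy chains, of their light chain and of Tap1, chosen because they show which of the textbook class I elements the genes have in common. Each is the 200 bases before the annotated start, 5′ to 3′ on the gene's strand, with matches in capitals to GGGGA directly followed by TTCCC (the NF-kB site of H2-K1), AANNGAAA (an interferon regulatory factor core), TGACG (a CREB/ATF core, as in the X2 box) and CCAAT (the NF-Y or Y box), each searched on both strands. The H2-K1 stretch (the first of 2 listed starts) lies at chr17:34000348-34000547 on the minus strand, H2-D1 at chr17:35262894-35263093 on the plus strand, H2-T23 at chr17:36032702-36032901 on the minus strand, B2m at chr2:122147487-122147686 on the plus strand and Tap1 at chr17:34187356-34187555 on the plus strand.
H2-K1: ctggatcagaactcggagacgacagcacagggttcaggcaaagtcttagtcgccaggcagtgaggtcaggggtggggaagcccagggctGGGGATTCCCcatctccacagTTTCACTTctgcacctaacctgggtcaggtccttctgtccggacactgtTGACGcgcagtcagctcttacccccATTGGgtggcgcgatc
H2-D1: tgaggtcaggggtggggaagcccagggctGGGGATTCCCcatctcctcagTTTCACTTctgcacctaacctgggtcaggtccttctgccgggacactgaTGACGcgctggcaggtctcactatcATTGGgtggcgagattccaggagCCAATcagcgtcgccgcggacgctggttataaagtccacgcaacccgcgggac
H2-T23: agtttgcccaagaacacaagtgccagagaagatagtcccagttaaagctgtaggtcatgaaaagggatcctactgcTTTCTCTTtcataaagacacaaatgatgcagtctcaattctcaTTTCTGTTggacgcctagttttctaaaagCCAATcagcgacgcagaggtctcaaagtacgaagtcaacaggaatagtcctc
B2m: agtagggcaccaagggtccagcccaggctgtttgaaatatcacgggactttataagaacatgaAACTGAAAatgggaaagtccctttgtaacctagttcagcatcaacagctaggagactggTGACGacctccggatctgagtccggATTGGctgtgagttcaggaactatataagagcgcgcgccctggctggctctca
Tap1: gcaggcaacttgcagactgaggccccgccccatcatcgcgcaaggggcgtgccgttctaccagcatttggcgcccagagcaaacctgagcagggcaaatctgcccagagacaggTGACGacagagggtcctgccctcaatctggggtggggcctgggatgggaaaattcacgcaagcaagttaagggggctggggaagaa

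H2-K1, H2-D1 and B2m each held TGACG followed on the same strand by ATTGG, the reverse complement of CCAAT, with exactly 20 bases between them. That order, with 15 to 25 bases allowed, was found in 143 of 32817 start-site windows of 300 bases, or 0.436%. Among the 7 members with a window, 3 had it, and H2-T23, Tap1, Tapbp and Erap1 did not. The letters are textbook elements of class I genes and were chosen after the data were seen. The share is therefore no independent measure of how unusual these matches are. H2-K1 and H2-D1 also shared the NF-kB site, present in 0.11% of windows. Its letters were taken from H2-K1, so the match there was given in advance. The windows of both genes aligned at 90.4% identity over 228 columns, so their matches are not independent. AANNGAAA was found in the windows of 5 members (H2-K1, H2-D1, H2-T23, B2m and Erap1), TGACG in 4 and CCAAT in 6, against 23.91%, 20.79% and 37.39% of all windows. Tap1 starts 226 bases from Psmb9, an immunoproteasome gene on the other strand, and the windows of both genes share 275 bases. A match describes letters only, and a window without one says nothing of binding.

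The deposited values are reads per gene scaled by library and rounded, called scaled counts here, with library totals from 5704313 to 5837994. Hdac2 was read first as a check of the labels, and stood at 392, 387 and 375 in KO libraries against 534, 482 and 518 in WT libraries, without overlap (exact permutation test, two-sided p = 0.1, the smallest that 3 against 3 libraries allow). Its log2 difference was -0.41 ± 0.057 (SE; limma adjusted p = 0.158, and 0.0142 without WT 1). The 10 macrophage markers (Adgre1, Cd68 and Csf1r among them) summed to 10964 to 11599 in KO and 12038 to 12844 in WT. Fibroblast and stroma markers were present as well, all 12 detected, and summed to 14256 to 18270 in KO libraries and to 13920, 5818 and 6325 in WT 1, WT 2 and WT 3. Xist was at 3298 to 4997 in KO and at 5243, 0 and 74 in the same WT libraries. None of the 4 Y-linked genes looked at (Ddx3y, Kdm5d, Eif2s3y and Uty) exceeded 10 in a KO library. They ranged from 23 to 44 in WT 1, from 179 to 473 in WT 2 and from 432 to 745 in WT 3. WT 1 was thus nearer to the KO libraries in the stroma sum and in the sex-linked genes. The members are therefore also given without WT 1 and against WT 1 alone. Dendritic cell markers (3 of 7 in the table) summed to 1200 to 1576 in KO and 1695 to 2348 in WT, nearly all of it Itgax, while Zbtb46 was higher in KO (51, 43 and 48) than in WT (37, 16 and 22). Osteoclast markers (5 of 6) summed to 1193 to 1330 in KO and 1641 to 2423 in WT, with Ctsk alone higher in the KO mean. B cell markers (3 of 6) summed to 252 to 385 in KO and 268 to 328 in WT, mostly Ighm, with Cd79b at 29, 34 and 39 in KO and 17, 9 and 12 in WT. The part of these cell types in the results below was not tested, nor was that of sex. The 4 Y-linked genes were lower in every KO library than in every WT library. Xist did not follow genotype in WT 1, where it stood above the KO libraries. The fit of all libraries has no term for sex and cannot separate it from genotype. Of the defining T cell markers, Cd3d, Cd3e, Cd3g and Cd8a were not in the table, nor were Ncr1, Prf1 and Gzma of the NK cell markers. Trac was at 31, 15 and 27 in KO and at 20, 1 and 2 in WT, and Cd28 at 421, 437 and 422 in KO and at 497, 531 and 512 in WT. The T cell markers in the table (4 of 8) summed to 601 to 638 in KO and 659 to 674 in WT, and the NK cell markers (2 of 7) to 18 to 22 in KO and 12 to 26 in WT.

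Class I and peptide loading genes were lower in the KO mean in 10 of 10 cases, with a median log2 difference (KO minus WT) of -0.21 against -0.0046 over all 13260 tested genes, of which 50.9% had a lower KO mean (directions here and below are those of the mean log2 value). For 8 of the 10 the KO libraries all lay below the lowest WT library, called separated here, compared with 13.4% of all tested genes (16.1% were separated upward), and Tap2 and Erap1 overlapped. The downward share differed with level, from 6.87% of genes under 0.1 scaled counts per exonic base to 56.4% of those at 0.3 or more. The members are set beside these classes further below. The sizes were small, with KO means at 0.811 to 0.949 of the WT means. Whether duplicate reads were removed, which would narrow differences of abundant genes, is not known, and its part was not tested. None passed limma's test with p-values adjusted by Benjamini-Hochberg across the table, where 0 genes passed in either direction (0.0% lower and 0.0% higher, smallest adjusted p = 0.158). With no adjustment, 8 members were lower at p under 0.05 and none higher, beside 1283 genes lower (9.68%) and 1947 higher (14.7%) in the whole table. Of all such genes 60.3% were higher, and 48.6% were under quantile normalization. Fewer cells that express these genes and less RNA per cell cannot be told apart in bulk libraries.

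**Figure D1:**
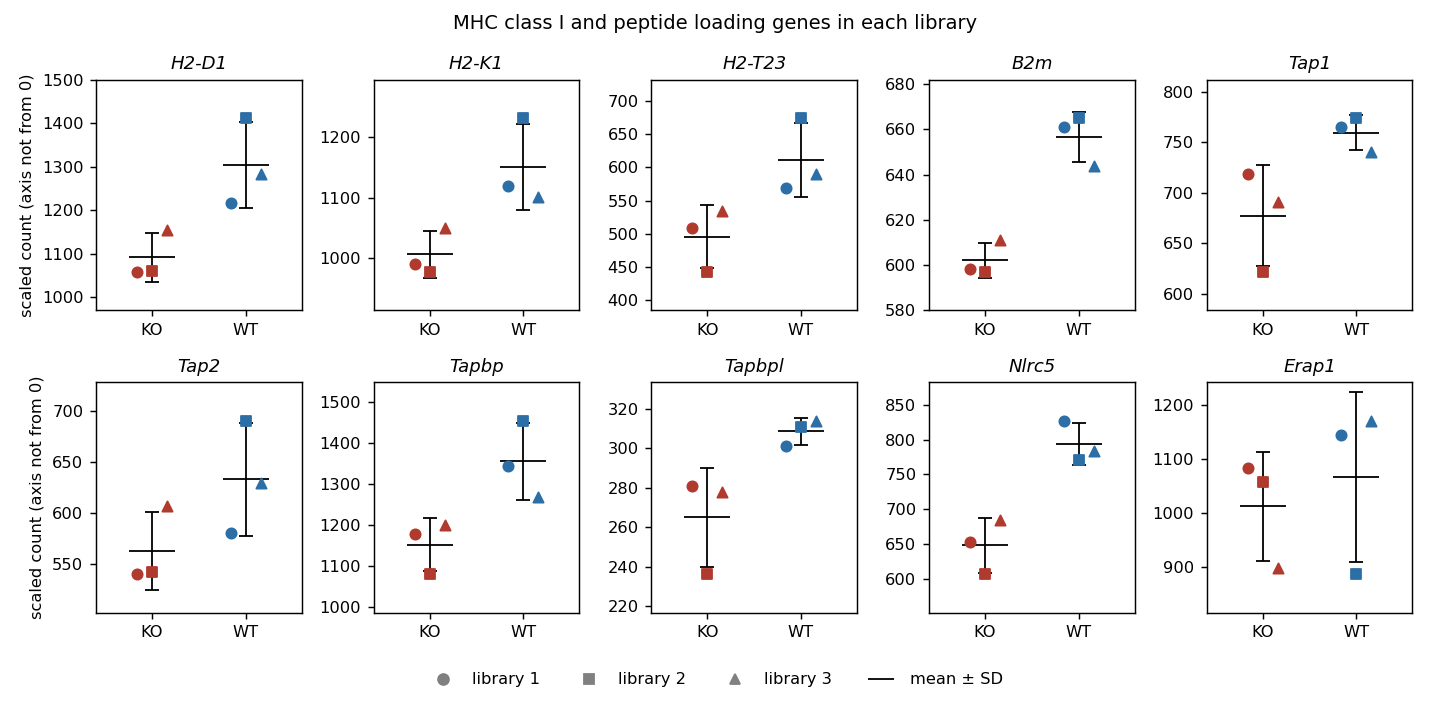
Scaled counts of the 10 genes in each KO and WT library, with the mean and SD of 3 libraries as bars; each panel has its own axis, which does not start at 0. In 8 panels all KO points lie below all WT points, and in those of Tap2 and Erap1 they overlap.

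The classical heavy chains H2-D1 and H2-K1 carry the groove that holds the peptide. H2-D1 (ENSMUSG00000073411, chromosome 17, 35262730 to 35267499, mm10) was at 1059, 1061 and 1156 scaled counts in KO and at 1217, 1412 and 1284 in WT. The groups did not overlap, with WT 1 the nearest WT library, and the log2 difference was -0.25 ± 0.071 (SE; limma adjusted p = 0.158), or -0.16 against WT 1 alone. H2-K1 (ENSMUSG00000061232, chromosome 17, 33996017 to 34000347) was at 990, 977 and 1050 in KO and at 1119, 1232 and 1101 in WT. It too was separated, at -0.19 ± 0.061 (limma adjusted p = 0.158), or -0.12 under cyclic loess. The pair are close relatives whose reads can be shared, and their sum was 2049, 2038 and 2206 in KO against 2336, 2644 and 2385 in WT.

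Stretches that could share reads were looked up in the GENCODE M21 transcripts, on either strand. Of 2133 different stretches of 72 bases, the read length, in protein-coding H2-K1 transcripts, 30 (1.41%) occur in another gene, all 30 in H2-D1. For H2-D1 the share was 6.86% of 2275 stretches, and for H2-T23 14.35% of 1401. B2m and Nlrc5 had none. Of the Tap1, Tap2 and Tapbpl stretches 4.77%, 8.98% and 2.41% were found in other genes. For Tapbp it was 17.78%, and for Erap1 13.28%, all of it in Cast. Matches to the opposite strand are included although the kit was stranded, so these shares can overstate the reads in doubt. Of the 144 shared Tap1 stretches, 141 occur in Psmb9, which lies on the other strand. Near matches are not counted here, and the labels do not say how reads with several hits were counted.

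H2-T23 encodes Qa-1, a nonclassical class I molecule recognised by NKG2A receptors. It stood at 509, 443 and 535 scaled counts in KO and at 569, 674 and 590 in WT (ENSMUSG00000067212, chromosome 17, 36029773 to 36032855). All KO libraries were below the lowest WT library, WT 1, and the log2 difference of -0.30 ± 0.097 was the largest of the 10 (limma adjusted p = 0.159).

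B2m encodes beta-2-microglobulin, the light chain that every class I heavy chain needs to reach the surface. It was at 598, 597 and 611 in KO and at 661, 665 and 644 in WT, which is 602 ± 7.81 in KO against 657 ± 11.2 in WT (SD, n = 3 each; ENSMUSG00000060802, chromosome 2, 122147686 to 122153083). The libraries within each group varied little and the groups did not overlap, with a log2 difference of -0.13 ± 0.041 (limma adjusted p = 0.162), or -0.083 under cyclic loess. Here WT 1 sat between WT 2 and WT 3. If duplicate reads were removed, which is not known, the values of so abundant a gene would vary less.

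Tap1 and Tap2 encode the subunits of the peptide transporter. Tap1 was at 719, 622 and 691 scaled counts in KO and at 765, 774 and 740 in WT (ENSMUSG00000037321, chromosome 17, 34187553 to 34197225). The KO libraries spread more widely than the WT ones but did not overlap them, and the log2 difference was -0.17 ± 0.065 (limma adjusted p = 0.188), or -0.11 without KO 2. Tap2 was at 540, 542 and 607 in KO and at 580, 690 and 629 in WT (ENSMUSG00000024339, chromosome 17, 34203527 to 34216321). KO 3 exceeded WT 1 there, so the groups overlapped, with a log2 difference of -0.17 ± 0.083 (limma adjusted p = 0.27), or -0.10 without WT 2. Per exonic base, the Tap1 to Tap2 ratio of levels was 0.833 ± 0.075 in KO and 0.832 ± 0.070 in WT (SD, n = 3 each), a difference well within the spread. The same ratio for H2-K1 plus H2-D1 to B2m was 1.07 to 1.13 in KO and 1.11 to 1.25 in WT, which overlap.

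Tapbp encodes tapasin, which bridges the empty class I molecule and TAP, and Tapbpl encodes its relative TAPBPR, a peptide editor that works outside that complex. Tapbp was at 1178, 1080 and 1200 in KO and at 1343, 1454 and 1268 in WT (ENSMUSG00000024308, chromosome 17, 33915899 to 33929292). Its groups were separated at -0.23 ± 0.070 on the log2 scale (limma adjusted p = 0.158), or -0.15 under cyclic loess. Tapbpl was at 281, 236 and 278 in KO and at 301, 311 and 314 in WT (ENSMUSG00000038213, chromosome 6, 125223933 to 125231860). The WT libraries lay close together and KO 2 stood lowest, giving -0.22 ± 0.085 (limma adjusted p = 0.184), or -0.14 without KO 2.

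Nlrc5, the class I transactivator, had the smallest p of the members. It was at 653, 606 and 684 scaled counts in KO and at 827, 770 and 783 in WT, or 648 ± 39.3 in KO against 793 ± 29.9 in WT (SD, n = 3 each; ENSMUSG00000074151, chromosome 8, 94434356 to 94527272). The groups did not overlap, and WT 1 was the highest library, unlike for the heavy chains. The log2 difference was -0.29 ± 0.061 (limma unadjusted p = 0.00277, adjusted p = 0.158). Against WT 1 alone it was -0.35, and no other member differed as much from that library.

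Erap1, which trims peptides to the length that class I accepts, did not separate the groups. It was at 1083, 1058 and 898 scaled counts in KO and at 1144, 887 and 1171 in WT (ENSMUSG00000021583, chromosome 13, 74639568 to 74693201). KO 3 and WT 2 were both low, and the log2 difference of -0.069 ± 0.13 (limma adjusted p = 0.789) turned to 0.0032 under cyclic loess and without WT 3, and to 0.0152 without KO 3. It was -0.014 without WT 1, -0.20 without WT 2 and -0.12 without KO 1.

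The members were then read library by library. KO 2 was the lowest library for 7 of the 10 and WT 2 the highest for 7. In each of the 9 possible pairings of a KO with a WT library, 9 or 10 of the 10 members were lower in the KO library. The pairings reuse the same libraries, and the 8 separated members are lower in each of them by definition. Shares of all tested genes were not computed for these counts. WT 1 was above the mean of WT 2 and WT 3 for 4 members and below it for 6. All 10 members had a lower KO mean than WT 1, with a median of -0.18, and for 9 every KO library lay below WT 1, compared with 24.6% of tested genes (28.4% had every KO library above it). Without WT 1 the median was -0.23 and only H2-D1 passed the limma test over all genes (-0.30, adjusted p = 0.0375), beside 672 genes lower (5.07%) and 1691 higher (12.8%). Nlrc5 was at -0.26 with an adjusted p of 0.0506 in that fit.

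**Figure D2:**
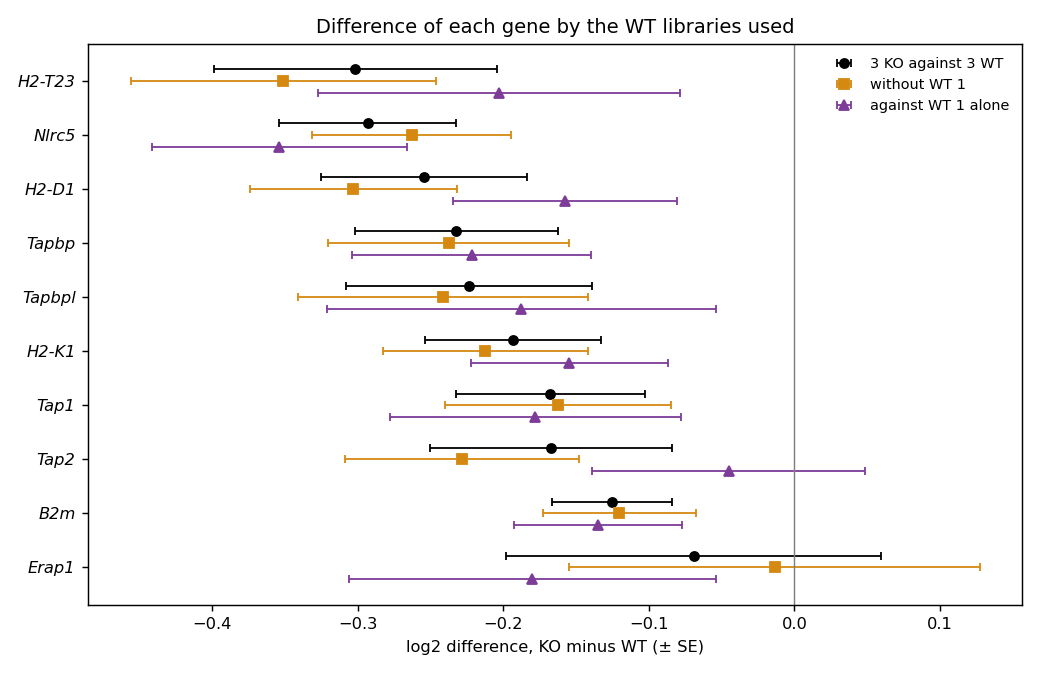
Log2 difference (KO minus WT, ± SE) of each gene with all 6 libraries (black), without WT 1 (orange) and against WT 1 alone (purple), ordered by the difference over all libraries. All estimates lie below 0; Tap2 is nearest to 0 against WT 1 alone (-0.045) and Erap1 without WT 1 (-0.014).

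How often the groups separated differed with the level of a gene. Per exonic base, averaged over the 6 libraries, B2m was at 0.732 scaled counts, the ninth highest of all genes, followed by H2-D1 at 0.465, H2-K1 at 0.367, Tapbp at 0.346, H2-T23 at 0.192, Tap2 at 0.158, Erap1 at 0.143, Tap1 at 0.131, Tapbpl at 0.122 and Nlrc5 at 0.0848. None of 17297 genes with a length exceeded 1 per base, and the highest was at 0.85. Among tested genes at 0.3 or more per base, 56.4% of 493 were separated downward, with a median log2 difference of -0.13. Among those at 0.1 to 0.3 it was 21.8% of 4144 (median -0.068), and among those under 0.1 it was 6.87% of 8617 (median 0.062). Of the members, 4 of 4 in the first class, 3 of 5 in the second and Nlrc5 in the third were separated in this way. H2-D1, H2-K1 and Tapbp, at -0.25, -0.19 and -0.23, lay below the median of their class, and B2m, at -0.13, lay close to it. The part that a gene's level played in the members' differences was not tested.

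**Figure D3:**
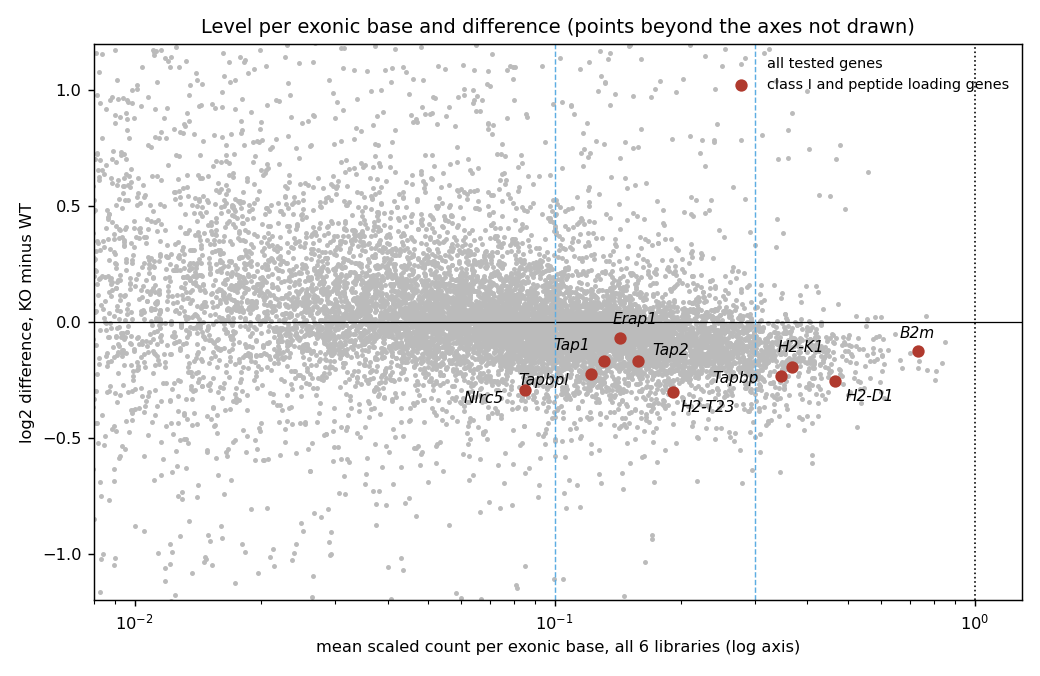
Log2 difference (KO minus WT) against the mean scaled count per exonic base on a log axis, for all tested genes (grey) and the 10 members (red); dashed lines mark 0.1 and 0.3 per base and the dotted line 1 per base. No gene lies beyond 1 per base, and most grey points lie below 0 at the right, where B2m, H2-D1, H2-K1 and Tapbp lie.

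Macrophage markers had lower KO means too, in 8 of 10 cases, with 7 of 10 separated and a median log2 difference of -0.17, so the members were also set against them within each library. The members' summed scaled counts were 0.694, 0.644 and 0.665 of the summed macrophage markers in KO and 0.706, 0.691 and 0.708 in WT. KO 1 exceeded WT 2, so these ratios overlapped between the groups. Per 1000 scaled counts of the markers, Nlrc5 stood at 59.6, 54.0 and 59.0 in KO and at 68.5, 60.0 and 65.0 in WT, still separated. B2m stood at 54.5, 53.2 and 52.7 in KO and at 54.8, 51.8 and 53.5 in WT, which overlapped. On this scale 4 of the 10 were separated (H2-D1, H2-K1, H2-T23 and Nlrc5), compared with 3.53% of all tested genes (33.7% were separated upward), and B2m and Erap1 had a higher KO mean. The 3.53% covers genes of all levels, and no share by level was computed on this scale. This scaling was chosen after the data were seen, and the part of macrophage content in the result was not tested.

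The rest of the pathway was read from lists of genes that hold no member. Counts of separated genes in these lists stand beside 13.4% of all tested genes separated downward and 16.1% upward. The downward share was larger among genes at higher levels, as given above. Of 10 tested further class I heavy chains 8 had a lower KO mean, 3 were separated and the median was -0.16. H2-T24 was at 370, 245 and 320 in KO and at 425, 384 and 416 in WT. H2-T22 was at 311, 276 and 310 in KO and at 345, 360 and 348 in WT, and H2-M2, a low gene, at 10, 7 and 9 in KO and at 16, 18 and 23 in WT. These 3 were the separated ones. H2-K2 was at 50, 60 and 45 in KO and at 56, 92 and 80 in WT, which overlapped. Of the H2-T22 stretches of 72 bases 26.59% are shared with other genes, mainly H2-T10, so its value is uncertain.

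All 6 genes of the immunoproteasome and its PA28 cap, which shape the peptide supply, were lower in KO by their means (median -0.18), and 4 were separated. Psmb8, a catalytic subunit, was at 432, 422 and 463 in KO and at 492, 499 and 483 in WT. Psme2, a PA28 subunit, was at 320, 322 and 302 in KO and at 348, 379 and 350 in WT. Psmb10 and Psme1 were the others, at -0.21 and -0.10 on the log2 scale (limma adjusted p = 0.193 and 0.259). Psmb9, named for the start region it shares with Tap1, overlapped, at 314, 258 and 258 in KO and 303, 319 and 296 in WT.

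Chaperones and general peptide suppliers were nearer to the table as a whole in their median. By the log2 difference 12 of 18 were lower and 6 higher, with Tpp2 at nearly 0, the median was -0.022 and 5 were separated, all downward. Sppl2a, an intramembrane protease, was at 1280, 1277 and 1310 in KO and at 1440, 1545 and 1541 in WT (-0.23 ± 0.0465, limma adjusted p = 0.158). Nrd1, a peptidase, was at 1286 ± 13.5 in KO and 1415 ± 38.7 in WT, and Calr, the lectin chaperone calreticulin of the loading complex, at 1366 ± 36.2 in KO and 1458 ± 49.3 in WT (SD, n = 3 each). Blmh, a cytosolic peptidase, was at 565 ± 18.8 in KO and 611 ± 18.5 in WT.

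Of 8 class I-like molecules 6 had a higher KO mean, with a median of 0.10, and 1 was separated in each direction. Mr1, which presents vitamin B metabolites, was at 379, 419 and 326 in KO and at 333, 239 and 290 in WT, which overlapped. Raet1d, an NKG2D ligand, was at 132, 142 and 129 in KO and at 116, 90 and 113 in WT, without overlap (0.34 ± 0.13, limma adjusted p = 0.181). Procr, the endothelial protein C receptor, was at 153, 161 and 200 in KO and at 199, 298 and 281 in WT, which overlapped. Hfe, an iron regulator, was at 567, 583 and 563 in KO and at 601, 585 and 610 in WT, and was separated by a narrow margin.

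Transcriptional regulators of class I genes were mixed, with a median of -0.016, 10 of 17 KO means lower, 3 genes separated downward and 2 upward. Hdac2 belongs to this list and is given above. Irf1, an activator of class I genes under interferon, was at 498, 502 and 536 in KO and at 552, 652 and 639 in WT, without overlap. Irf2 was at 599, 624 and 675 in KO and at 673, 818 and 763 in WT, with KO 3 just above WT 1. The genes separated upward, named here after their values were seen, were Rfx5 (337, 317 and 298 in KO and 277, 271 and 287 in WT) and Nfyb (269, 253 and 256 in KO and 225, 222 and 239 in WT), which encode subunits of RFX and NF-Y. Among 12 interferon receptor and signalling genes 11 were lower by the log2 difference, with Usp18 at nearly 0, and 6 were separated, with a median of -0.098. Stat2 was at 1159, 1017 and 1093 in KO and at 1315, 1278 and 1276 in WT. Tyk2 averaged 857 ± 34.2 in KO and 954 ± 60.3 in WT, and Irf9 622 ± 16.5 in KO and 687 ± 41.0 in WT (SD, n = 3 each), and both were separated.

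A list of receptors taken to read class I molecules had 5 tested genes, of which 3 had a lower KO mean. Whether each of them, Lilrb4a included, binds class I was not checked. Pirb, an inhibitory receptor for class I on myeloid cells, was at 723, 799 and 887 in KO and at 914, 1206 and 1056 in WT (-0.39 ± 0.12, limma adjusted p = 0.158). Lilrb4a was at 991 ± 20.0 in KO and 1102 ± 46.5 in WT, and both genes were separated. Lilra6 overlapped, at 14, 17 and 23 in KO and at 17, 38 and 43 in WT, as did Klra2, at 59, 43 and 61 in KO and at 60, 20 and 49 in WT.

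MHC class II presentation genes had a median of -0.28 over 10 tested genes, with 8 KO means lower, 4 genes separated downward and 1 upward. Cd74, which encodes the invariant chain, stood at 89, 69 and 124 in KO and at 123, 264 and 312 in WT, where WT 1 lay within the KO range. H2-Ob was at 55, 62 and 55 in KO and at 44, 21 and 19 in WT. Ctss, the protease that cuts the invariant chain, was at 998 ± 18.2 in KO and 1189 ± 56.6 in WT, and Ifi30, a thiol reductase, at 436 ± 12.1 in KO and 547 ± 75.0 in WT (SD, n = 3 each). The class II median against WT 1 alone was -0.082, beside -0.18 for the class I members.

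**Figure D4:**
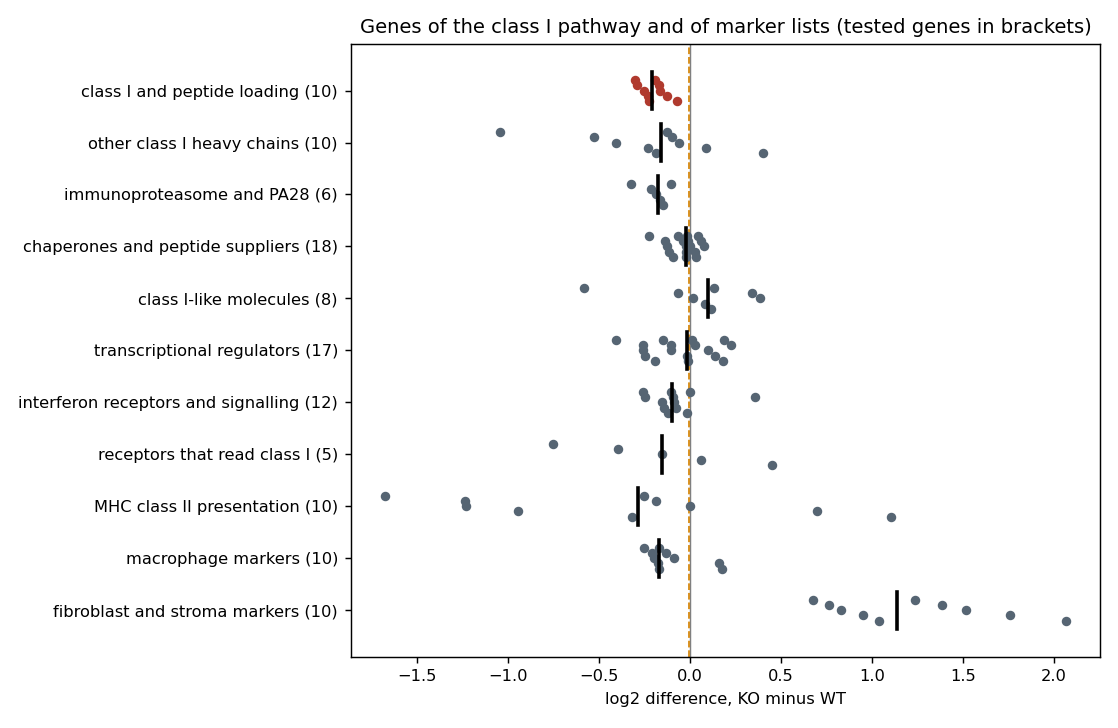
Log2 difference (KO minus WT) of each tested gene in the class I pathway lists and in the macrophage and stroma lists; black bars are list medians and the dashed line the median of all tested genes. The 10 members lie between -0.30 and -0.069, the macrophage markers have a median of -0.17 and the fibroblast and stroma markers one of 1.14.

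Position was the last feature compared. Of the members, 6 lie in the MHC region of chromosome 17 (33915899 to 36032855, mm10), and 4 lie on chromosomes 2, 6, 8 and 13. The median log2 difference was -0.21 for the 6 and -0.17 for the 4. Another 74 tested genes inside that region, outside the lists and not named H2, had a median of -0.044, with 6 separated downward and 16 upward. Over all tested genes these shares were 13.4% and 16.1%. The levels of the 74 genes were not matched to those of the members, and the part of level was not tested.

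The genes whose profile over the 6 libraries lay closest to the mean profile of the members, by root mean square distance on the log2 scale, were Emc4 (0.020), Hmox2 (0.021), Slfn2 (0.023), Snx9 (0.026) and Tspo (0.026). Emc4, a subunit of a membrane protein insertion complex, was at 216, 205 and 226 scaled counts in KO and at 237, 252 and 245 in WT. Slfn2, a Schlafen family gene, was at 674, 641 and 689 in KO and at 748, 797 and 734 in WT.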

How the data were processed

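RNA of 6 bone marrow-derived macrophage libraries was sequenced from 3 µg of total RNA as single reads of 72 bases with a stranded kit, per the labels' protocols. The submitters' processing notes list mm10, featureCounts 2.0.3, DESeq2 1.36.0, STAR 2.7.10a, Picard 2.27.4 and Trimmomatic 0.39, without roles or order. The unit of the deposited values was taken to be a score: whole numbers with nearly equal totals per library, scaled by the authors and not raw reads, so the depth behind them is unknown and no count model or counting interval is given. Picard can remove duplicate reads, which would cap a gene near 1 single read per base and strand and narrow differences between abundant genes; no source used here says whether this was done.

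The filter kept 13260 genes that reached 10 in 3 or more libraries. KO minus WT was fitted in limma 3.58.1 (R 4.3.3) to log2(value + 1), with trended variance and group as the only term; p-values are two-sided and adjusted by Benjamini-Hochberg over those genes, with a threshold of 0.05. Log2 differences on that scale understate changes of low genes. The fit was also run on simulated data with independent noise per gene and changes larger than those of the members. That run therefore says nothing of differences of their size. Exonic lengths are unions of GENCODE M21 exons (17297 genes matched by identifier, 99.1% with the same coordinates). Named genes are the members, Hdac2, up to 4 per pathway list by smallest p and the 5 closest profiles with a mean of at least 100; Rfx5, Nfyb and Psmb9 were added, and 1 gene that the rule names is not reported here. The marker-relative values, the classes by level per base and the motif letters were chosen after the data were seen. Members and lists were chosen with earlier results of these data known. Python 3.11.15, pandas 2.3.3 and Biopython 1.88 were used. Leaving out libraries, other scalings, filters, pseudocounts and a replicate block were tried.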

Additional observations from a re-analysis of the deposited data

How the results depend on the processing

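Leaving out 1 library at a time gave 0 to 2363 genes past the threshold, the 2363 without WT 1 and 0 for every other library; the other 10 alternatives all gave 0. Of 160 values of the 10 members over 16 alternatives, 157 kept their direction. The 3 that did not were all of Erap1, at 0.0032 under cyclic loess and from -0.197 to 0.0152 when leaving out libraries, with values above 0 without WT 3 (0.0032) and without KO 3 (0.0152); the cause was not tested. H2-D1 passed without WT 1 alone. The members' median ranged from -0.14 under cyclic loess to -0.24 without KO 3. Cyclic loess and quantile normalization left 5 members lower at an unadjusted limma p under 0.05, against 8 as reported, and so did leaving out WT 2. Leaving out KO 2 left 2. Of all 13260 tested genes, 1099 were lower and 1892 higher at that threshold under cyclic loess, and 1650 and 1558 under quantile normalization. Without WT 2 they were 774 and 1277, and without KO 2 481 and 1107, against 1283 and 1947 as reported. The KO minus WT difference of Hdac2 was -126.7 scaled counts, with the same direction in every alternative run.

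Deviations from the group means correlated across genes at r = 0.534, -0.364 and 0.024 for libraries that share the numbers 1, 2 and 3. For libraries of different numbers r ranged from -0.545 to 0.618. With 3 libraries per group these values cannot show whether the numbers pair the libraries. With the replicate block 0 genes passed, and 2 members were lower at an unadjusted limma p under 0.05, beside 898 genes lower and 1846 higher. Rounding and unknown depth limit values of a few counts.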
